A study of Equus caballus with 2 samples.

Results

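The centromeric ends of the acrocentric chromosomes of the horse were described here by their DNA methylation in an equine sarcoid and in skin. They were taken as positions 1 to 3000000 of chromosomes 14 to 31, which are acrocentric and numbered from the centromere. A CpG was a member if each library read it 10 times or more, which gave 28494 CpGs in 18 ends. This was 8.42% of the 338580 such CpGs of these chromosomes and 3.25% of the 877053 of the genome. The ends listed 40419 CpGs in either library, of which 35117 were in both, and 70.5% of those listed in either passed the read minimum.

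The tumour library came from an equine sarcoid, a fibroblastic skin tumour associated with bovine papillomavirus. The skin library came from a site away from the tumour of the same animal, horse 1. The assay was reduced representation bisulfite sequencing (RRBS), which reads CpGs near CCGG sites only. The level of a CpG is the percent of its reads that kept a C, both strands summed. Each tissue had 1 library and no replicate. Every difference below is therefore a difference between these 2 libraries, and no value says how far animals or tumours vary. The labels gave no age, sex or treatment of the horse and no share of tumour cells in the tissue.

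A centromere is the site where the kinetochore forms and where sister chromatids stay joined until they part. It usually lies in long arrays of satellite DNA, flanked by pericentromeric chromatin in which CpGs are kept methylated by DNA methyltransferases. Loss of methylation in pericentromeric satellites is a known feature of many human tumours. In an acrocentric chromosome the centromere lies close to one end, so the first megabases of a chromosome sequence are the pericentromeric part of the long arm. Satellite arrays are commonly missing from genome assemblies, and the values below describe the assembled sequence only. The files hold no annotation, so the centromeric position of these ends came from the numbering of the chromosomes and could not be checked on the data.

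The first CpG listed lay between position 5, on chromosome 15, and position 282336, on chromosome 21, with a median of 10836.5 over the 18 chromosomes. Median coverage per CpG in the ends was 32 reads in sarcoid and 42 in skin, against 31 in sarcoid and 41 in skin in the rest of these chromosomes. Sarcoid over skin reads on a log2 scale, taken in each end relative to the rest of its chromosome, averaged 0.0021 (SD 0.10, n = 18 chromosomes). It lay above 0 on 9 chromosomes and below 0 on 9. It was highest on chromosome 24, at 0.252, and lowest on chromosome 21, at -0.176.

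Listed CpGs were closer together in the ends than in the rest of these chromosomes. A 1 kb tile that held any listed CpG held 7.37 of them on average in the ends and 6.59 in the rest, a ratio of 1.12. The ratio was above 1 on 12 of 18 chromosomes, and it was 1.03 without chromosomes 16 and 21. Tiles with over 20 listed CpGs made up 6.22% of listed tiles in the ends and 4.81% in the rest. Per megabase the ends held 528 CpGs that passed the read minimum, against 319 in the rest. End over rest, this ratio was above 1 on 11 of 18 chromosomes and below 1 on 7. It ranged from 0.252 on chromosome 28 to 8.01 on chromosome 21, with 5.25 on chromosome 16. The ends were unlike each other in this respect, with 433 CpGs on chromosome 28 and 5870 on chromosome 21. Chromosomes 16 and 21 together held 10178 CpGs, or 35.7% of all members, so means over CpGs lean on this pair. By CpGs per tile, chromosome 21 was the densest end, with 9.84, and chromosome 31 the sparsest, with 5.33.

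Methylation in the ends was higher than in the rest of the same chromosomes, in both libraries and by about the same amount. In the sarcoid library the mean over CpGs was 46.6% in the ends (95% counting interval 46.5 to 46.7) and 42.1% in the rest, a gap of 4.45 points. In the skin library it was 48.1% in the ends (48.0 to 48.2) and 43.4% in the rest, a gap of 4.67 points. The gap was positive on 13 of 18 chromosomes in sarcoid and on 14 of 18 in skin. With each chromosome weighing the same it averaged 5.71 points in sarcoid (SD 8.13) and 5.71 points in skin (SD 8.28, n = 18 chromosomes each). Single chromosomes thus ranged widely around it, and the gap was smaller than its standard deviation over chromosomes. The 18 chromosomes share 1 library per tissue and are no replicates of it, so no test of the ends against the rest was made.

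The end of chromosome 26 had the highest level, with 67.1% in sarcoid and 66.5% in skin. The largest gaps to the rest were on chromosome 15, at 20.03 points in sarcoid and 20.9 in skin, and on chromosome 20, at 18.05 points in sarcoid and 18.9 in skin. Chromosome 25 went the other way. Its end had the lowest level of all, with 34.0% in sarcoid and 36.0% in skin, and its gap to the rest was -11.01 points in sarcoid and -12.1 in skin. On chromosome 21, which held most members, the end was within 1 point of the rest, with gaps of -0.94 points in sarcoid and 0.08 in skin. Without chromosome 25 the mean gap over CpGs was 5.84 points in sarcoid and 6.22 in skin, and without chromosome 16 it was 3.33 points in sarcoid and 3.56 in skin.

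**Figure D1:**
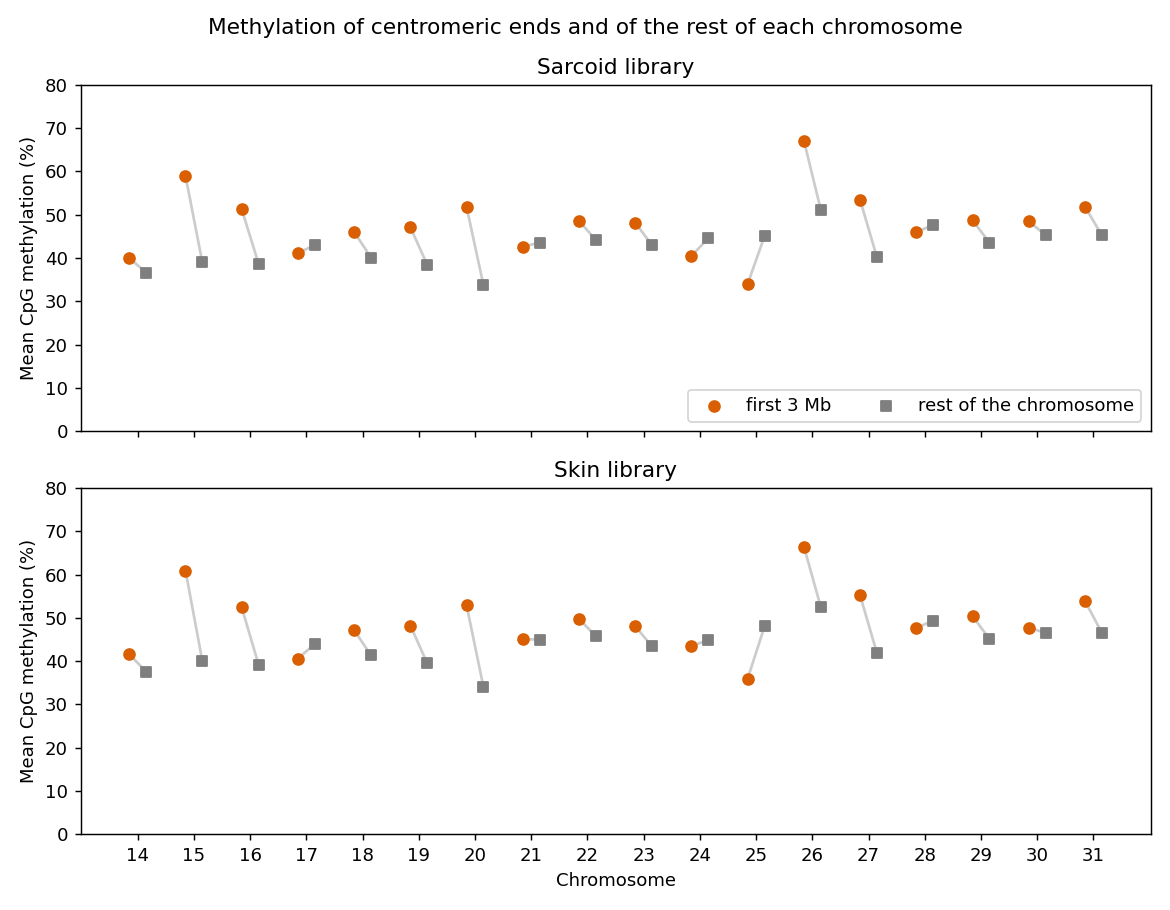
Mean CpG methylation in percent for chromosomes 14 to 31 in the sarcoid library (upper panel) and the skin library (lower panel), with circles for the first 3 Mb and squares for the rest of the chromosome. Circles lie above squares on 13 chromosomes in sarcoid and 14 in skin, and chromosome 25 shows the largest gap in the other direction.

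The higher mean came from both tails of the distribution. CpGs at a level of at most 20% made up 37.3% of the ends in sarcoid, against 42.5% of the rest. In skin they made up 35.1% of the ends, against 40.7% of the rest. CpGs at 80% or above made up 31.9% of the ends in sarcoid, against 28.3% of the rest, and 32.6% of the ends in skin, against 28.9% of the rest. The share of CpGs with low methylation was smaller in the end than in the rest on 14 of 18 chromosomes in each library.

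Of the 3 megabases of the ends, the first had the highest mean, over CpGs and over chromosomes alike, but not on every chromosome. Over the first 1 Mb the mean over CpGs was 50.8% in sarcoid and 51.5% in skin. It was 43.1% in sarcoid and 44.6% in skin from 1 to 2 Mb, and 45.6% in sarcoid and 47.6% in skin from 2 to 3 Mb. The limit at 3 Mb was not a step in the data, since the next megabase had 45.7% in sarcoid and 47.7% in skin. With each chromosome weighing the same, the mean stayed at 40.8% or above in sarcoid and 41.9% or above in skin through the first 12 Mb. It was 50.3% in sarcoid and 52.0% in skin from 9 to 10 Mb, about as high as in the first megabase. From 12 to 13 Mb it was 39.7% in sarcoid and 40.4% in skin. From 16 to 17 Mb it was 44.8% in sarcoid and 45.9% in skin, near the 44.6% in sarcoid and 46.3% in skin from 2 to 3 Mb. Within the first megabase, means over CpGs in steps of 0.1 Mb ranged from 38.8% to 62.8% in sarcoid and from 39.0% to 62.8% in skin. The highest was 0.4 to 0.5 Mb, where 1503 CpGs of 17 chromosomes averaged 62.8% in each library. The first 0.1 Mb averaged 55.4% in both libraries over 874 CpGs of 15 chromosomes. With each chromosome weighing the same, the first 0.1 Mb was the highest of these steps, at 57.6% in sarcoid and 57.4% in skin. The step from 0.4 to 0.5 Mb then had 55.9% in sarcoid and 56.6% in skin.

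Some single ends changed steeply along their 3 Mb. On chromosome 20 the first megabase had 73.8% in sarcoid and 73.7% in skin, and the second 28.4% in sarcoid and 28.4% in skin. On chromosome 14 the first had 73.3% in sarcoid and 74.0% in skin, and the second 21.7% in sarcoid and 22.3% in skin. On chromosome 26 the first had 74.8% in sarcoid and 73.6% in skin over 432 of its 581 CpGs. Other ends went the other way. On chromosome 18 the first had 36.6% in sarcoid and 35.7% in skin, and the second 67.9% in sarcoid and 64.7% in skin. On chromosome 25 the first was the lowest of the 3, with 24.4% in sarcoid and 24.3% in skin. These megabases were chosen after their values were seen. From 2 to 3 Mb, chromosome 20 had 24.4% in sarcoid and 30.8% in skin over only 260 CpGs. The difference of -6.40 points was the largest of all megabases of the ends, and it is given for its size. Chromosome 14 had 37.0% in sarcoid and 39.7% in skin from 2 to 3 Mb. On chromosomes 14 and 20 the first and second megabases thus stood far apart in each library, while the libraries differed more in the third.

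**Figure D2:**
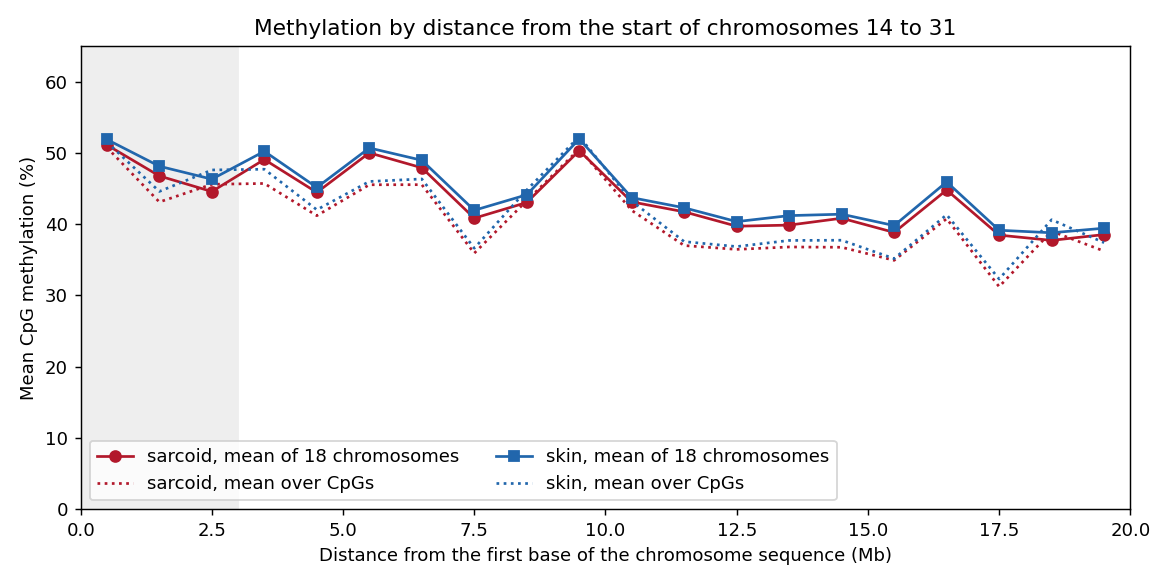
Mean CpG methylation in percent against distance from the first base of the chromosome sequence in Mb, in steps of 1 Mb over chromosomes 14 to 31. Solid lines with markers give the mean of 18 chromosome values and dotted lines the mean over CpGs, and the shaded part is the first 3 Mb. The sarcoid and skin lines run close together, and the first megabase stands at 51.1% in sarcoid and 51.9% in skin as the mean of chromosomes.

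The gap to the rest was largest among tiles of intermediate and high CpG density. In tiles with 11 to 20 listed CpGs, the mean in sarcoid was 49.4% in the ends and 38.1% in the rest, and in skin it was 50.6% in the ends and 39.4% in the rest. In tiles with 21 to 40 listed CpGs, it was 29.1% in the ends and 19.7% in the rest in sarcoid, and 29.6% in the ends and 20.1% in the rest in skin. In that class the end was above the rest on 14 of 18 chromosomes in each library, with a median gap of 12.9 points in sarcoid and 13.3 in skin. In the class of 11 to 20 it was above on 12 of 18 in each library. Sparser tiles had smaller gaps, but those with 1 to 5 listed CpGs had the most chromosomes above. Their gap was 2.37 points in sarcoid and 2.86 in skin, with the end above on 15 of 18 chromosomes in sarcoid and 16 in skin. In tiles with 6 to 10 the gap was 1.02 points in sarcoid and 1.45 in skin. There the end was above on 9 of 18 chromosomes in sarcoid and 12 in skin. Tiles with over 40 listed CpGs had a gap of 3.55 points in sarcoid and 5.52 in skin over CpGs, but the end was above the rest on only 5 of the 14 chromosomes with at least 20 CpGs there. With the rest weighted to the same mix of density classes as the ends, the gap was 6.14 points in sarcoid and 6.43 in skin. Levels were lower in denser tiles in both regions, and tiles with 11 to 20 listed CpGs held 27.4% of the CpGs of the ends and 24.1% of those of the rest.

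Taken tile by tile, 339 tiles of the ends had over 20 listed CpGs and at least 3 that passed the read minimum. Of these, 199 (58.7%) were at or below 20% in sarcoid and 193 (56.9%) in skin. The rest of the chromosomes had 3264 such tiles, with 71.5% at or below 20% in sarcoid and 71.3% in skin. All 193 tiles that were low in skin were low in sarcoid too. Between 20% and 80% were 105 tiles of the ends (30.97%) in sarcoid and 105 (30.97%) in skin, against 20.3% of the rest in sarcoid and 19.0% in skin. The share of low tiles was smaller in the end than in the rest on 13 of 18 chromosomes. Chromosome 21 held 93 of the 339 tiles, of which 46 were low in sarcoid and 45 in skin. Chromosome 25 held 34, of which 28 were low in sarcoid and 26 in skin. On chromosome 15, only 3 of 15 were low in sarcoid and 2 of 15 in skin. The mean level of dense tiles moved by 25 points or more between the libraries in 6 of the 339 (1.77%), with 4 lower and 2 higher in sarcoid, and in 1.81% of those of the rest.

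**Figure D3:**
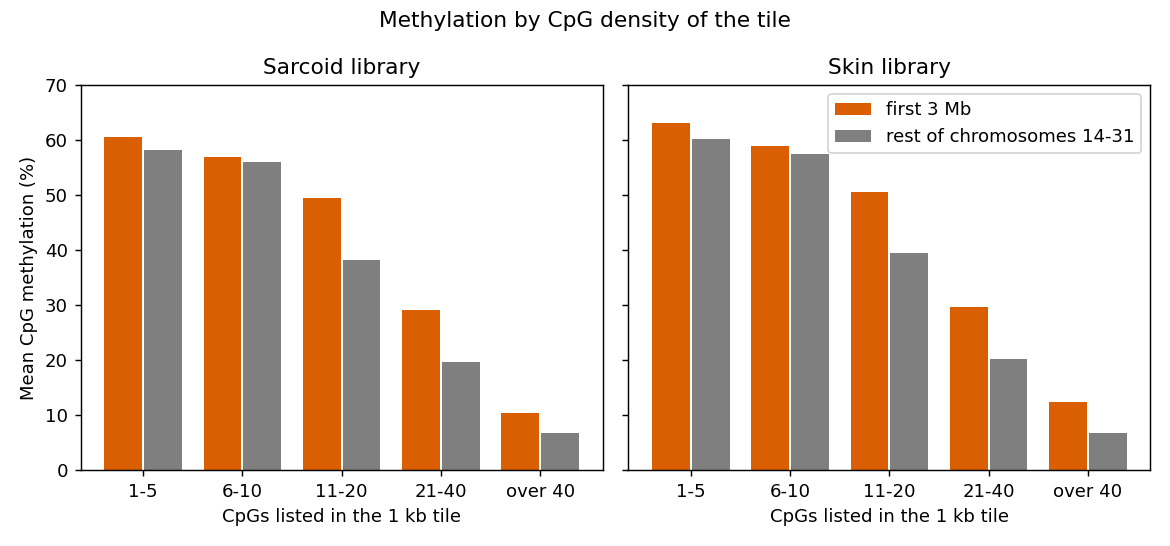
Mean CpG methylation in percent by the number of CpGs listed in the 1 kb tile, in the sarcoid library (left) and the skin library (right), with bars for the first 3 Mb and for the rest of chromosomes 14 to 31. Bars have no error, as each class is 1 value per library, and the widest gaps are in the classes of 11 to 20 and 21 to 40 CpGs.

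Between the libraries, methylation of the ends was slightly lower in sarcoid than in skin. The mean difference, sarcoid minus skin, was -1.49 points in the ends (95% counting interval -1.60 to -1.38) and -1.26 points in the rest (-1.29 to -1.23), a gap of -0.227 points (-0.340 to -0.114). Counting intervals cover the sampling of reads only and are too narrow, since a read spans several CpGs and copies of a molecule were not removed by identifiers. The difference was negative on 14 of 18 ends, with an interval below 0 on all 14, and it was negative in the rest of all 18 chromosomes. The larger fall in the ends rested on chromosome 21. Without it the difference was -1.24 points in the ends and -1.25 in the rest, a gap of 0.015 points. With each chromosome weighing the same, the ends and the rest both averaged -1.21 points, with standard deviations over 18 chromosomes of 1.06 in the ends and 0.629 in the rest. The end had the more negative difference on 10 chromosomes and the less negative one on 8. With each read instead of each CpG weighing the same, the difference of the ends was -2.65 points and its gap to the rest -0.885.

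The largest falls were on chromosomes 24, 21 and 31. On chromosome 24 the end had 40.5% in sarcoid and 43.5% in skin, a difference of -2.93 points (-3.48 to -2.39), while the rest of that chromosome differed by -0.40. In this end the log2 ratio of sarcoid over skin reads also stood highest against the rest of its chromosome. The ratio itself was -0.286, so sarcoid reads were still fewer than skin reads. The part of depth in the difference was not tested. On chromosome 21 the end had 42.6% in sarcoid and 45.1% in skin (-2.45 points, -2.69 to -2.22), and its log2 ratio of sarcoid over skin reads stood lowest against the rest of its chromosome, at -0.176. The part of depth in this difference was not tested either. The third megabase held 3612 of its 5870 CpGs and differed by -3.29 points, while the first and second differed by -1.16 and -1.08. On chromosome 31 the end had 51.8% in sarcoid and 53.9% in skin (-2.06 points), and all 3 of its megabases were lower in sarcoid, with differences of -2.56, -1.61 and -2.04 points.

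On 4 chromosomes the mean of the end was higher in sarcoid. The largest such differences were on chromosomes 30, 26 and 17. Chromosome 30 had 48.5% in sarcoid and 47.7% in skin (0.76 points, 0.03 to 1.502), and the largest part came from its second megabase, with 59.0% in sarcoid and 55.9% in skin over 206 CpGs. Chromosome 26 differed by 0.65 points (-0.15 to 1.46) and chromosome 17 by 0.48 (-0.11 to 1.06). Chromosome 23 differed by 0.10 points. Of these, the interval lay above 0 on chromosome 30 only, and these 4 ends held 581 to 1159 CpGs each. By distance, the difference was -0.75 points in the first megabase, -1.49 in the second and -2.01 in the third, and it was -2.00 from 3 to 4 Mb and -0.83 from 4 to 5 Mb. The value of the third leans on chromosome 21, which held 3612 of its 12616 CpGs and differed by -3.29 points there. With the ends limited to the first megabase, the gap of the difference to the rest was 0.54 points, so its direction turned.

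**Figure D4:**
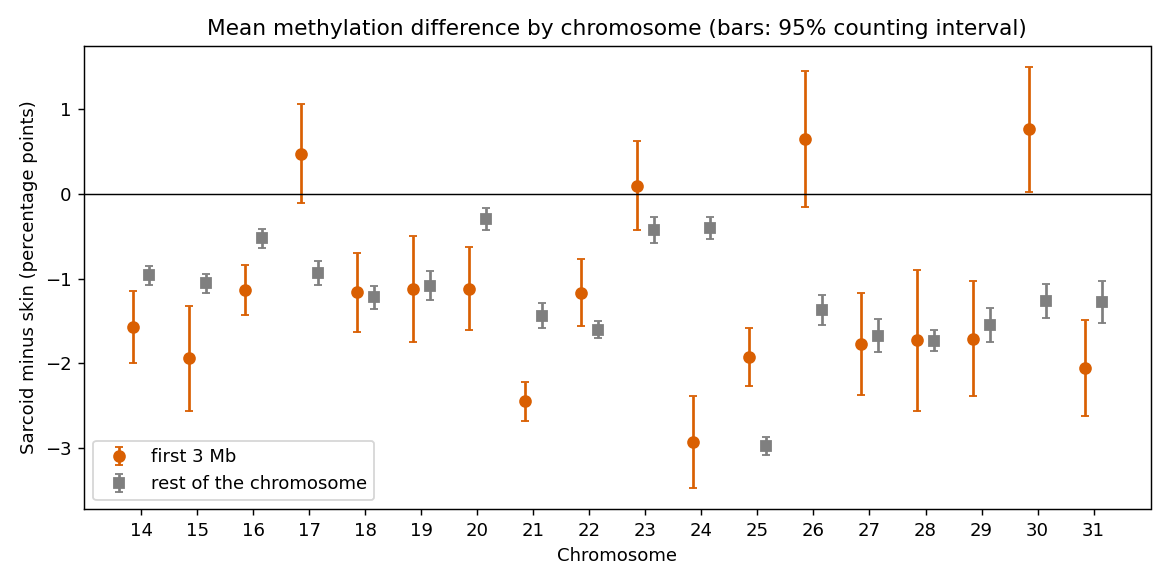
Mean methylation difference, sarcoid minus skin in percentage points, for the first 3 Mb (circles) and the rest (squares) of chromosomes 14 to 31, with bars for the 95% counting interval of reads. Squares lie below 0 on all 18 chromosomes and circles on 14, and the circles spread more widely than the squares.

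Single CpGs were compared by Fisher's exact test, two-sided, on methylated and unmethylated reads. A CpG was called where its q was below 0.01, after Benjamini-Hochberg adjustment over all 877053 CpGs, and the levels lay at least 25 points apart. Such a call sets 1 library against the other, not sarcoid against skin in general. In the ends, 588 CpGs (2.06%) were called lower in sarcoid, against a background of 1.89% over the genome. A further 216 (0.758%) were called higher, against a background of 0.954%. The rest of the chromosomes had 5953 lower calls (1.92%) and 3066 higher calls (0.989%). Lower calls thus outnumbered higher ones by 2.72 to 1 in the ends and by 1.94 to 1 in the rest. Chromosome 21 held 180 of the lower calls and 55 of the higher calls, and without it the shares in the ends were 1.80% lower and 0.712% higher, a ratio of 2.53. The share of lower calls in the ends was close to the background with or without chromosome 21. The share of higher calls was smaller in the end than in the rest on 13 of 18 chromosomes.

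With each CpG thinned to 10 reads per library, so that depth was equal, 5.88% of members were at least 40 points lower in sarcoid, against 5.47% in the rest and a background of 5.48%. At least 40 points higher were 3.40% of members, against 3.58% in the rest and a background of 3.58%. Sampling alone takes some unchanged CpGs past this limit at 10 reads, so these shares serve only to set regions side by side.

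Lower calls outnumbered higher ones in 17 of 18 ends and in the rest of every one of these chromosomes. The exception was the end of chromosome 30, with 2 lower (0.319%) and 9 higher (1.44%), against 1.46% lower and 0.869% higher in its rest. Chromosome 14 had 6 lower (0.382%) and 0 higher calls among 1569 CpGs, against 1.14% lower and 0.864% higher in its rest. Chromosome 15 had 25 lower (2.51%) and 2 higher (0.201%), against 1.38% lower and 0.828% higher in its rest. The largest share of lower calls was 3.07%, on chromosome 21, against 2.49% in its rest. The largest share of higher calls was 1.51%, on chromosome 18, with 23 of 1528, against 1.23% in its rest. Of the 9283 members at 80% or above in skin, 283 (3.05%) were called lower, and of the 10003 at or below 20% in skin, 41 (0.410%) were called higher. In the rest, 3.24% of the CpGs at 80% or above in skin were called lower and 0.635% of those at or below 20% were called higher. Between 20% and 80% in skin, 3.31% of the ends were called lower, against 3.24% of the rest. There 1.90% of the ends were called higher, against 2.40% of the rest. Classes by sarcoid level hold other CpGs. Of CpGs at or below 20% in sarcoid, 1.97% of the ends were called lower, against 1.47% of the rest. Between 20% and 80% in sarcoid, 4.31% of the ends were called lower, against 4.42% of the rest. Higher calls there were 0.956% in the ends and 1.55% in the rest. Of CpGs at 80% or above in sarcoid, 1.45% of the ends were called higher, against 1.90% of the rest. The level that sets a class is part of the difference, so these shares depend on the classing by construction.

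Of 4173 tiles of the ends, 53 (1.27%) held at least 3 CpGs called lower, with 233 such CpGs, and 24 (0.575%) held at least 3 called higher, with 106. In the rest, 1.02% of 49957 tiles held at least 3 called lower and 0.643% at least 3 called higher, shares close to those of the ends. Of 2159 tiles with at least 5 members, 68 (3.15%) had a mean at least 25 points lower in sarcoid and 46 (2.13%) a mean at least 25 points higher. In the rest, 3.27% of 23641 tiles were that much lower and 2.10% that much higher, shares close to those of the ends.

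The tiles with the largest mean differences are given by position, chosen for their size and with no test. That choice favours agreement in direction, separate ranges and calls, so these describe the tiles and lend no support to a change. Over the genome 1.89% of CpGs were called lower and 0.954% higher. Coordinates are those of the files, whose genome build no source used here gives. The largest fall was on chromosome 21 from 2219001 to 2220000, where 15 CpGs over 109 bases averaged 20.2% in sarcoid and 80.7% in skin. Every one of them was lower in sarcoid. The range was 10.5% to 26.3% in sarcoid and 38.9% to 94.4% in skin, and these ranges did not overlap. Coverage was 19 to 38 reads per CpG in sarcoid and 30 to 66 in skin, and 11 of the 15 were called singly.

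On chromosome 16 from 1997001 to 1998000, 7 CpGs averaged 15.1% in sarcoid and 74.1% in skin, with ranges of 6.67% to 22.7% in sarcoid and 63.0% to 92.6% in skin. Chromosome 21 held another pair of such tiles. From 2000001 to 2001000, 13 CpGs averaged 21.9% in sarcoid and 79.8% in skin, and from 542001 to 543000, 6 CpGs averaged 16.7% in sarcoid and 73.3% in skin. In the tile of 13 CpGs 8 were called, and in the tile of 6 all were. On chromosome 27 from 1983001 to 1984000, 5 CpGs averaged 22.7% in sarcoid and 79.0% in skin. In all 5 tiles every member was lower in sarcoid. Strands could be compared, with 10 reads on each, at only 12 of the 46 members in sarcoid and 12 in skin, and at none on chromosome 16.

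The largest rise was on chromosome 22 from 2032001 to 2033000, where 15 CpGs over 304 bases averaged 69.7% in sarcoid and 24.6% in skin. It was not uniform, since 14 CpGs were higher in sarcoid and 1 lower, the libraries overlapped in range, and 2 CpGs had strands at least 30 points apart, of 1 that could be compared in sarcoid and 7 in skin. The tile of chromosome 29 from 2647001 to 2648000 was more even. Its 9 CpGs over 83 bases had 56.2% to 96.7% in sarcoid and 30.3% to 49.1% in skin, with means of 82.7% in sarcoid and 41.8% in skin, and 6 of them were called. On chromosome 21 from 1503001 to 1504000, 5 CpGs averaged 65.1% in sarcoid and 24.4% in skin, and all 5 were higher. On chromosome 17 from 2008001 to 2009000, 11 CpGs averaged 65.7% in sarcoid and 25.3% in skin, over only 13 to 14 reads per CpG in sarcoid, with 10 higher and 1 lower. On chromosome 18 from 18001 to 19000, 8 CpGs averaged 80.04% in sarcoid and 40.4% in skin, with 7 higher and 1 lower, and 2 were called. CpGs close together were read by the same fragments, so those of 1 tile are no independent counts of a change.

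The tile with most members was almost unmethylated in both libraries. On chromosome 18 from 194001 to 195000, 59 CpGs averaged 0.24% in sarcoid and 0.03% in skin, with a highest single level of 10% in sarcoid and 1% in skin.

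**Figure D5:**
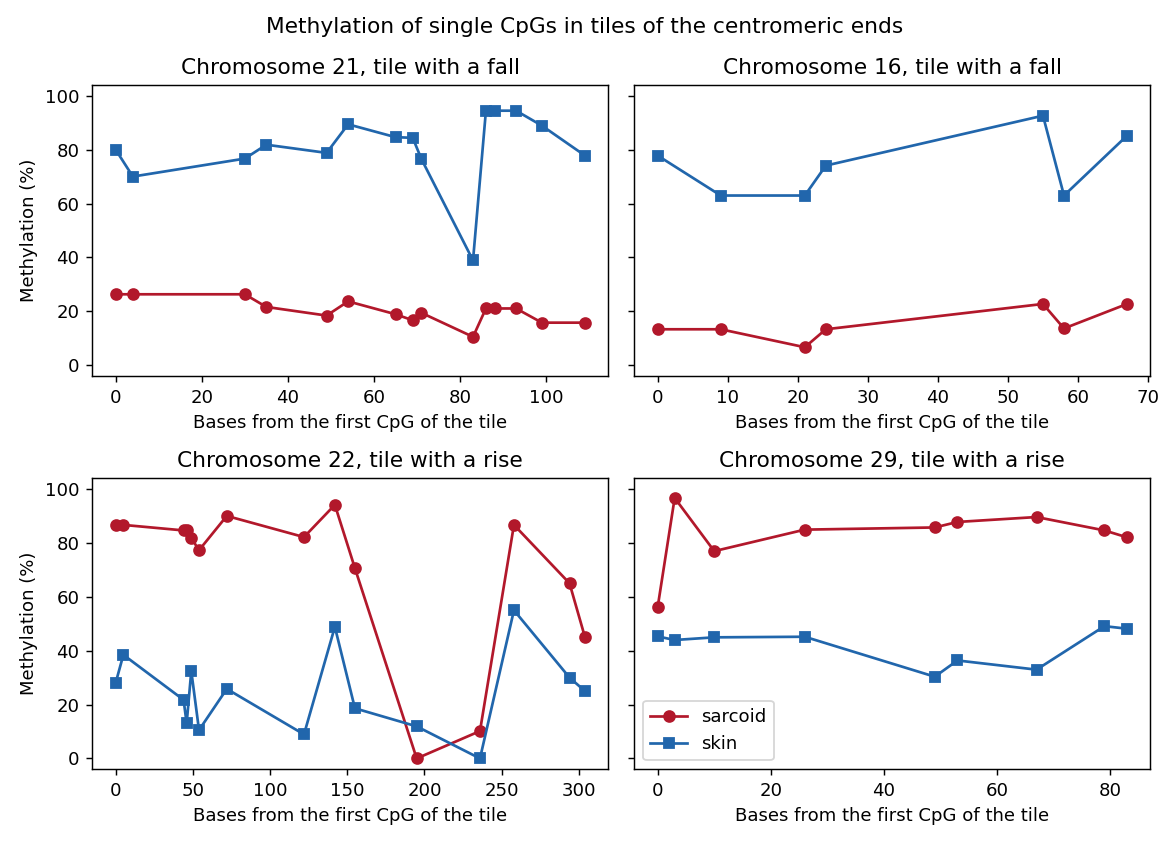
Methylation in percent of single CpGs against bases from the first CpG of the tile, in sarcoid (circles) and skin (squares), for the tiles with the largest falls (upper panels, chromosomes 21 and 16) and rises (lower panels, chromosomes 22 and 29). In the upper panels every sarcoid value is below every skin value, and in the lower left panel the lines cross.

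Very deep coverage was found at few members. Over 488 reads in sarcoid or 715 in skin, the limits passed by 0.1% of CpGs of each library, were 20 members (0.0702%) and 62 CpGs of the rest (0.01999%). Of the 20, 15 lay close together on chromosome 23, from 22578 to 22718. They had 424 to 1626 reads in sarcoid and 950 to 2126 in skin. Their mean was 51.6% in sarcoid (range 7.37% to 83.0%) and 49.4% in skin (11.003% to 79.3%), and 0 were called in either direction. Leaving out all CpGs over the limits left the mean difference of the ends at -1.49 points.

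Strands of a CpG disagreed slightly more often in the ends than in the rest. Where both strands had at least 10 reads, they lay at least 30 points apart at 18.2% of 11087 members in sarcoid and 13.6% of 11527 in skin. In the rest this was 16.6% in sarcoid and 12.6% in skin. With such CpGs left out and both strands required, 7317 members were left, the mean difference was -0.965 points and the gap to the rest was 5.97 points in sarcoid and 6.15 in skin.

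The other ends of the same chromosomes were higher still. The centromeric ends stood at 46.6% in sarcoid and 48.1% in skin, and the last 3 Mb at 53.5% in sarcoid and 55.3% in skin over 55685 CpGs. The first 3 Mb of chromosomes 1 to 13, which are not acrocentric, stood at 50.2% in sarcoid and 52.8% in skin over 42291 CpGs. Against the rest without its last 3 Mb, the gap of the centromeric ends was 6.93 points in sarcoid and 7.27 in skin. The difference between libraries was -1.49 points in the centromeric ends, -1.80 in the last 3 Mb and -2.62 in the starts of chromosomes 1 to 13. In the same order, a listed tile held 7.37, 7.29 and 8.23 CpGs on average. Per megabase 528, 1031 and 1084 CpGs passed the read minimum. Of dense tiles, 58.7%, 46.5% and 38.6% were low in sarcoid. Strands lay at least 30 points apart in sarcoid at 18.2%, 18.5% and 16.4% of CpGs. Closer listed CpGs and fewer low dense tiles were thus not particular to the centromeric ends.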

How the data were processed

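Genomic DNA of 1 sarcoid and 1 tumour-distant skin sample of 1 horse was profiled by RRBS. BSMAP, FastQC and methylKit are named per the submitters' processing notes, and no source used here names the genome build. Per the file headers, each deposited file gives a read count (coverage) per cytosine and strand and the percent of reads showing C. The sarcoid file holds 1655782 cytosines with 35970547 reads, the skin file 1701575 with 48650606.

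Methylated reads were coverage times percent, rounded, and the strands of a CpG were summed. At 0.543% of sarcoid and 0.567% of skin cytosines that product was not whole within rounding, and these were kept. Means weigh CpGs equally, and 95% counting intervals assume independent reads. Fisher's exact test used Benjamini-Hochberg adjustment over all CpGs. No upper limit on coverage was set. The tools were numba 0.67.0 and SciPy 1.17.1 for the test and intervals, matplotlib 3.10.9 for the figures, and NumPy 2.4.6 and pandas 2.3.3 under Python 3.11.15.

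The members, comparisons and settings were chosen with earlier results of these data known. The chromosome ends named were the 3 with the largest fall, the 3 with the largest rise, the densest and the sparsest. The tiles named were the 5 with the largest fall and the 5 with the largest rise among tiles with at least 5 members, and that with most members. Other chromosomes were singled out after their values were seen. The authors' table of chromosome 1 was not used here. The reference at hand was of another assembly, so genes and sequences are not given.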

Additional observations from a re-analysis of the deposited data

How the results depend on the processing

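With 1 library per tissue, no library could be left out. No paired analysis was possible because each group had 1 sample. The cause of the changes below was not tested, except that fewer CpGs or a wider window change counts of calls by construction. The level of the ends stayed above the rest in every setting run. The gap of the level was 4.28 points in sarcoid and 4.57 in skin with a minimum of 5 reads, and 4.64 points in sarcoid and 4.92 in skin with 20 reads. With 10 reads on each strand it was 5.26 in sarcoid and 5.54 in skin, the difference of the ends was -1.21, and 258 CpGs were called lower and 113 higher. With strands also under 30 points apart, the level gap was 5.97 in sarcoid and 6.15 in skin and the difference -0.965, with 221 lower and 103 higher calls. In a window of 1000000 the level gap was 8.46 in sarcoid and 7.91 in skin, the difference -0.753, and calls 143 lower and 78 higher, and the gap of the difference turned to 0.542. In a window of 5000000 the level gap was 3.51 in sarcoid and 3.76 in skin, with 892 lower and 354 higher calls. Chromosomes 18, 21, 22, 25, 28 and 29 were those whose sarcoid reads fell least below skin reads outside the ends. Without them the level gap was 9.00001 in sarcoid and 9.29 in skin and the difference -1.12, with 235 lower and 95 higher calls. With each read weighing the same, the level gap was 4.65 in sarcoid and 5.54 in skin, the difference -2.65 and its gap -0.885. With the rest weighted to the density of the ends, the level gap was 6.14 in sarcoid and 6.43 in skin. With each chromosome weighing the same it was 5.71 in sarcoid and 5.71 in skin, the difference was -1.21 and its gap -0.000297. At 40 points, 391 CpGs were called lower and 133 higher.

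A further 2 settings were chosen after seeing the data. Against the rest without its last 3000000, the level gap was 6.93 in sarcoid and 7.27 in skin and the gap of the difference -0.345. Without chromosomes 16 and 21, the difference was -1.26, its gap turned to 0.0520, the level gap in skin was 4.34, the density ratio was 1.03, and calls were 332 lower and 113 higher.

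Leaving out each chromosome in turn, the difference of the ends ranged from -1.56 to -1.24 and its gap from -0.377 to 0.0150, above 0 only without chromosome 21. The level gap ranged from 3.33 to 5.84 in sarcoid and from 3.56 to 6.22 in skin, with 408 to 586 lower and 161 to 216 higher calls. The density ratio ranged from 1.05 to 1.14 and the depth of the ends relative to the rest from -0.013 to 0.012.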
